A study of Danio rerio with 12 samples.

Results

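The Sm proteins are the core proteins of the spliceosomal small nuclear ribonucleoproteins (snRNPs), and the genes described here are snrpd2, snrpd3, snrpe, snrpf and SNRPG of the zebrafish. They were chosen by name, using the gene symbols of the deposited tables, and make up 5 of the 14516 genes named there. The choice was made with earlier results of these data known, and the Sm genes snrpb and snrpd1 were left out. A skipped-exon event was present for 4 of the 5 genes, with 9 entries over the tables that stand for 5 different exons. No member had an entry in a retained-intron table, and snrpf had no splicing event of either kind. These symbols name RNA measurements only, since no protein was measured.

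Each spliceosomal snRNP of the U1, U2, U4 and U5 classes holds a small nuclear RNA (snRNA) encircled by a ring of Sm proteins. The ring is built in the cytoplasm from preformed subcomplexes, with SmD3 bound to SmB, SmD2 bound to SmD1, and SmE bound to SmF and SmG. The survival motor neuron (SMN) complex places these on the snRNA, and the finished particle is imported into the nucleus. U6 snRNA carries a ring of the related LSm proteins in place of the Sm ring, and these particles splice pre-mRNA.

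The study sequenced RNA of whole zebrafish embryos in 12 libraries, 3 in each of 4 groups, to examine mutants of RNA processing genes found in screens for T cell development. Controls had the genotype wt, and 1 control library each came from the mixed backgrounds A, B and C. The mutant groups were snapc3-/- on mixed background A, lsm8-/- on mixed background B and tnpo3-/- on mixed background C. The snapc3 product is a subunit of the complex that drives snRNA transcription, the lsm8 product sits in the LSm ring on U6 snRNA, and the tnpo3 product imports SR splicing proteins. The sources used here do not give the alleles, the developmental stage or the number of embryos per library. Nothing in the labels says that libraries came from separate clutches, so the p-values measure only the spread between these libraries. In controls that spread includes the backgrounds A, B and C, and beyond that it may be technical. Strain background and mutation cannot be told apart within a mutant group.

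The 3 comparisons share the same control libraries, and every control count was identical wherever 2 tables held the same event. Total junction reads per library of the skipped-exon tables ranged from 12772103 to 15025631 in the snapc3 table, 14668691 to 22999590 in the lsm8 table and 15711487 to 18650509 in the tnpo3 table. Each lsm8 mutant library was shallower than each control library in its table. Among the mutated genes, the authors' deposited table listed snapc3 at a log2 fold change of -1.39 in the snapc3 mutants. In the tnpo3 mutants the authors' deposited table listed tnpo3 at -1.51 on the log2 scale. Average log2 expression in these tables was 0.04 for snapc3 and 5.10 for tnpo3, so the snapc3 value rests on a low level. The authors' deposited table for the lsm8 mutants listed lsm8 higher, by 2.87 on the log2 scale, so transcript level does not check that label. Reads of markers of neurons, muscle, epidermis, liver and exocrine pancreas were found in libraries of every group, all of them labelled whole embryo. The pancreatic elastase gene ela2 fell in the junction reads of every mutant, with log2 changes of -4.46 in the snapc3 mutants (limma adjusted p 0.00718), -4.65 in the lsm8 mutants (limma adjusted p 0.00205) and -3.46 in the tnpo3 mutants (limma adjusted p 0.000380).

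The authors' deposited table for the snapc3 mutants listed 4 of the 5 Sm genes, and all 4 were higher than in controls. Genes enter it when they pass an adjusted p of 0.05 with log2 fold changes of 1 or more in size, and 0.415% of an inferred 33737 genes tested are listed as higher. For snrpd3, whose product pairs with SmB, the authors' deposited table gave a log2 change of 1.56 (SE 0.10, adjusted p 0.00650). For snrpd2, whose product pairs with SmD1, the authors' deposited table gave 1.11 (SE 0.06, adjusted p 0.00538). In the SmE, SmF and SmG subcomplex, the authors' deposited table gave snrpe 1.29 (SE 0.04, adjusted p 0.00213) and snrpf 1.17 (SE 0.05, adjusted p 0.00346). SNRPG was the member missing from the list, and snrpb and snrpd1, which are not members, were missing too. As snrpf had no splicing event, its symbol is found here only in the deposited lists of changed genes. That snrpf is listed in at least 1 of them was therefore fixed in advance. The median of the 4 listed Sm genes was 1.23 on the log2 scale, against 1.55 for all 140 genes listed as higher in the authors' deposited table. By p-value, snrpe ranked 2 among the 464 genes of the authors' deposited table.

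For the lsm8 mutants, the authors' deposited table listed all 5 Sm genes, each higher than in controls, where 1.27% of the genes tested are listed as higher. The count of 5 includes snrpf, which is a member only through such lists and so adds nothing to it. In the authors' deposited table snrpd3 had a log2 change of 2.45 (SE 0.12, adjusted p 0.00153) and snrpd2 one of 1.87 (SE 0.08, adjusted p 0.000931). For the SmE, SmF and SmG subcomplex, the authors' deposited table gave snrpe 1.98 (SE 0.05, adjusted p 0.000285), snrpf 1.69 (SE 0.18, adjusted p 0.0114) and SNRPG 1.86 (SE 0.17, adjusted p 0.00754). In both tables snrpd3 had the largest value of the listed members. The genes of the remaining ring proteins were listed too, since the authors' deposited table gave snrpb at 1.26 (adjusted p 0.00961) and snrpd1 just above the minimum of 1 (adjusted p 0.0283). Neither was listed in the other mutants, and neither had a skipped-exon event. Across the 427 genes listed as higher in the authors' deposited table the median was 1.98, against 1.87 for the Sm genes. The authors' deposited table for the tnpo3 mutants listed none of the 5 Sm genes among its 115 genes, where 0.113% of the genes tested are listed as higher. A gene that is not listed may still differ, since it may have missed the p threshold or the minimum fold change.

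The deposited expression values have no entry per library, so the level of each gene in each library was taken from the junction reads of the skipped-exon tables. All reads that include or skip an exon of a gene were summed, divided by the library's scaled total and given as CPM, the usual unit of such a share. They cover only the few exon junctions listed as events, and the level of a gene therefore compares between libraries of the same table and not between genes or tables.

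In the snapc3 mutants the junction reads of all 3 Sm genes with an event rose. An exon is listed only with at least 1 skipping read over its 6 libraries. For snrpe (2 reads) and SNRPG (18 reads) all skipping reads came from mutant libraries. These genes thus entered through the group where they are higher, so the count of 3 may be partly set by that rule. In this comparison 2.44% of 10135 genes rose at an adjusted p below 0.05, 5.71% changed in either direction, and 14.4% had every mutant library above every control library. The 3 control libraries held 1421, 1461 and 1360 reads of snrpd2, and the 3 mutant libraries held 3217, 2654 and 2645. No mutant library overlapped the controls. Scaled for depth, snrpd2 went from 101 ± 8.29 to 213 ± 8.31 CPM (SD, n = 3), a log2 change of 1.08 (SE 0.09, limma adjusted p 0.000522).

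Reads of snrpe were 654, 765 and 751 in controls and 1991, 1683 and 1708 in snapc3 mutants, again without overlap. The level rose from 51.5 ± 0.910 to 135 ± 2.40 CPM (SD, n = 3), a log2 change of 1.39 (SE 0.08, limma adjusted p 0.000115). Libraries of the same group lay closer together for snrpe than for the other Sm genes. SNRPG, which the expression table did not list, had 265, 285 and 183 reads in controls and 494, 337 and 474 in mutants. Its level rose from 17.5 ± 4.32 to 32.6 ± 4.99 CPM (SD, n = 3), a log2 change of 0.91 (SE 0.21, limma adjusted p 0.0396). That call was lost without any single library other than the control in position 1 of the cell, with adjusted p between 0.0552 and 0.142, whereas the direction stayed.

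**Figure D1:**
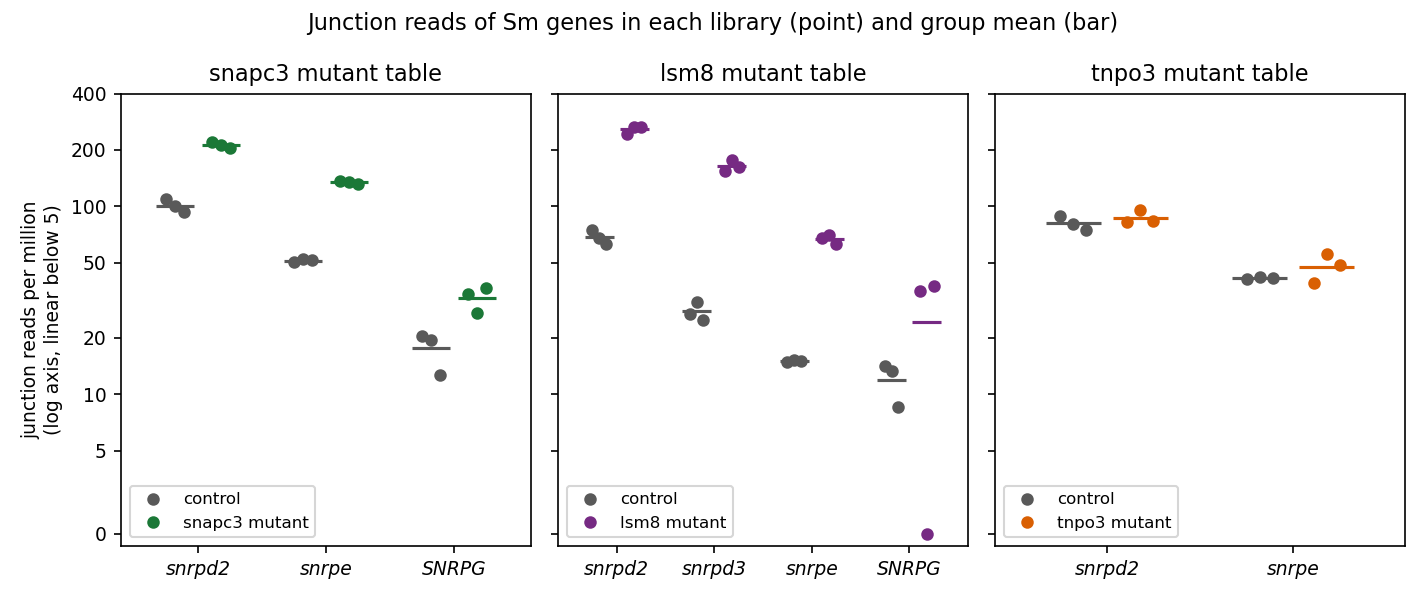
Junction reads (CPM) of each Sm gene (vertical axis, logarithmic above 5 and linear below) in each library, shown as points, with bars for group means, in the 3 skipped-exon tables. In the snapc3 table all mutant points lie above all control points, in the lsm8 table the SNRPG point at 0 stands apart from its group, and in the tnpo3 table the groups overlap for both genes.

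The junction reads of 3 of the 4 Sm genes with an event rose in the lsm8 mutants. For snrpd3, snrpe and SNRPG the skipping reads, 2 each, came from mutant libraries alone. These genes too entered through the mutants, so this count may be partly set by the listing rule. Here 4.54% of 9957 genes rose at an adjusted p below 0.05, 11.7% changed in either direction, and 16.2% had every mutant library above every control library. For snrpd3, which had an event in this table alone, controls held 506, 664 and 538 reads and mutants 2401, 2636 and 3146. The mutant libraries exceeded the controls several times over although they were shallower. The level rose from 27.6 ± 3.05 to 165 ± 11.4 CPM (SD, n = 3), a log2 change of 2.58 (SE 0.11, limma adjusted p 5.97e-07). RefSeq lists a related zebrafish gene, snrpd3l, and the sources used here do not say how reads common to both were assigned.

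Reads of snrpd2 in the lsm8 mutants were 3749, 3941 and 5151, against the control counts given above, with no overlap. The level rose from 68.8 ± 6.15 to 257 ± 13.1 CPM (SD, n = 3), a log2 change of 1.90 (SE 0.10, limma adjusted p 1.51e-06). The snrpe event of this table is another exon than in the snapc3 and tnpo3 tables, and its reads were 281, 327 and 323 in controls and 1048, 1051 and 1233 in mutants. This gave 15.03 ± 0.170 and 67.3 ± 3.67 CPM (SD, n = 3), a log2 change of 2.15 (SE 0.11, limma adjusted p 1.25e-06).

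SNRPG was the exception in the lsm8 mutants, because its mutant libraries held 547, 0 and 731 reads. In 2 mutant libraries the reads exceeded every control, and the library in position 2 had none. The mean level was 11.93 CPM in controls and 24.3 CPM in mutants, but the fit on the log scale had the opposite sign. The fitted log2 fold change was -1.17 (SE 2.75, limma adjusted p 0.827), and without that library it was 1.64 (SE 0.22, limma adjusted p 0.00504). The same library held 3941 reads of snrpd2 and 2636 of snrpd3. Events with no read in 1 library and a mean of at least 100 in the other libraries of its group occurred in every library but were rare. Of the 23389 events of the lsm8 table, there were 2 in this library and 1 to 25 in the others. The authors' deposited table, which is given per gene and not per event, gave SNRPG as higher by 1.86 on the log2 scale.

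In the tnpo3 mutants neither of the 2 Sm genes with an event passed the test, where 1.09% of 11333 genes rose, 3.34% changed in either direction and 13.2% had every mutant library above every control library. The snrpd2 reads were 1460, 1660 and 1374 in mutants, which overlapped the 1360 to 1461 reads of the controls. Scaled levels were 81.5 ± 7.07 in controls and 87.3 ± 7.66 CPM in mutants (SD, n = 3), a log2 difference of 0.10 with a 95% interval from -0.14 to 0.34 (limma adjusted p 0.657). The snrpe reads were 689, 962 and 805 in mutants. Levels were 41.5 ± 0.470 and 47.8 ± 8.43 CPM (SD, n = 3), a log2 difference of 0.19 with a 95% interval from -0.12 to 0.50 (limma adjusted p 0.487). Both intervals lie within a log2 change of 1 in either direction.

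**Figure D2:**
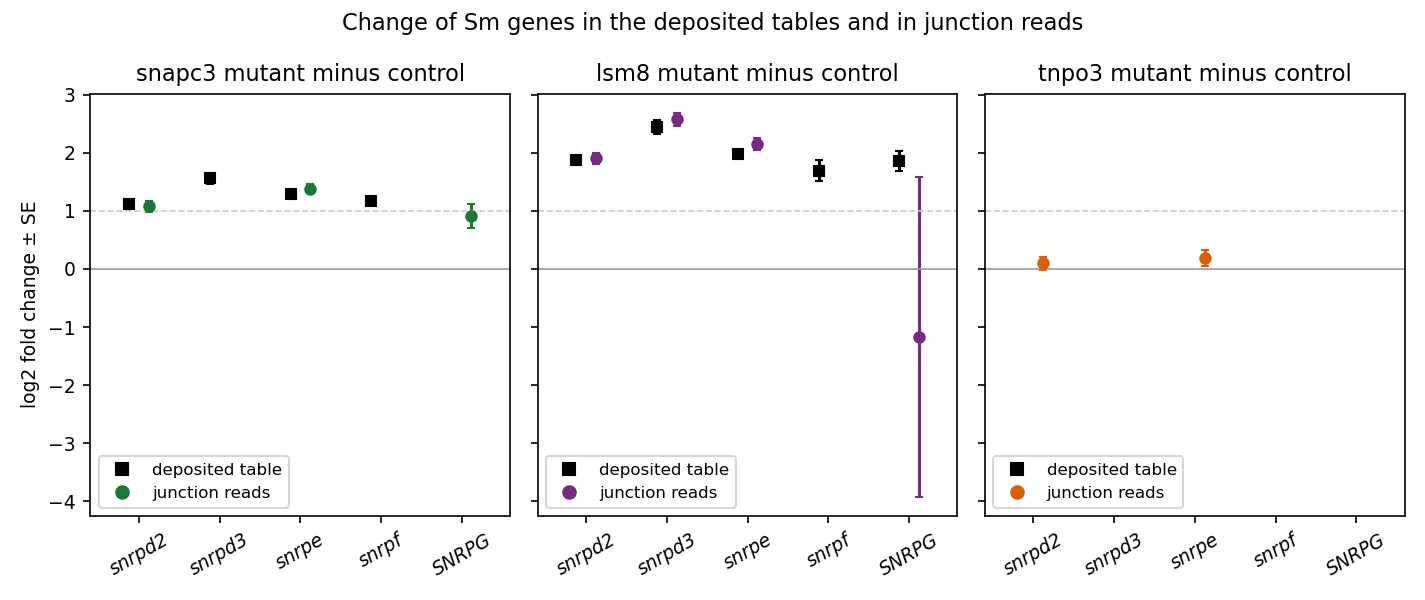
Log2 fold change of mutant against control (vertical axis, ± SE) for the 5 Sm genes in each mutant, from the authors' deposited tables (black squares) and from junction reads (coloured circles), with a dashed line at the minimum of 1 used in the deposited tables. Points lie between 0.91 and 1.56 in the snapc3 mutants, and between 1.69 and 2.58 in the lsm8 mutants except for SNRPG junction reads at -1.17, and the tnpo3 panel has no deposited value for any member.

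Among all genes tested, 1.32% had a larger log2 fold change of junction reads than snrpd2 in the snapc3 mutants, 0.671% a larger one than snrpe and 1.98% a larger one than SNRPG. In the lsm8 mutants these shares were 0.623% for snrpd2, 0.482% for snrpe and 0.291% for snrpd3. Of these genes, snrpd2 alone had skipping reads in controls, so the ranks of the others may also be partly set by the listing rule. The median over all genes was 0.00 in the snapc3 mutants and 0.01 in the lsm8 mutants. Of the genes called in either direction, 42.7% were higher in the snapc3 mutants and 38.7% in the lsm8 mutants. These splits became 22.5% and 57.0% when libraries were scaled by their total alone, and the direction of every Sm gene was the same with either scaling.

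**Figure D3:**
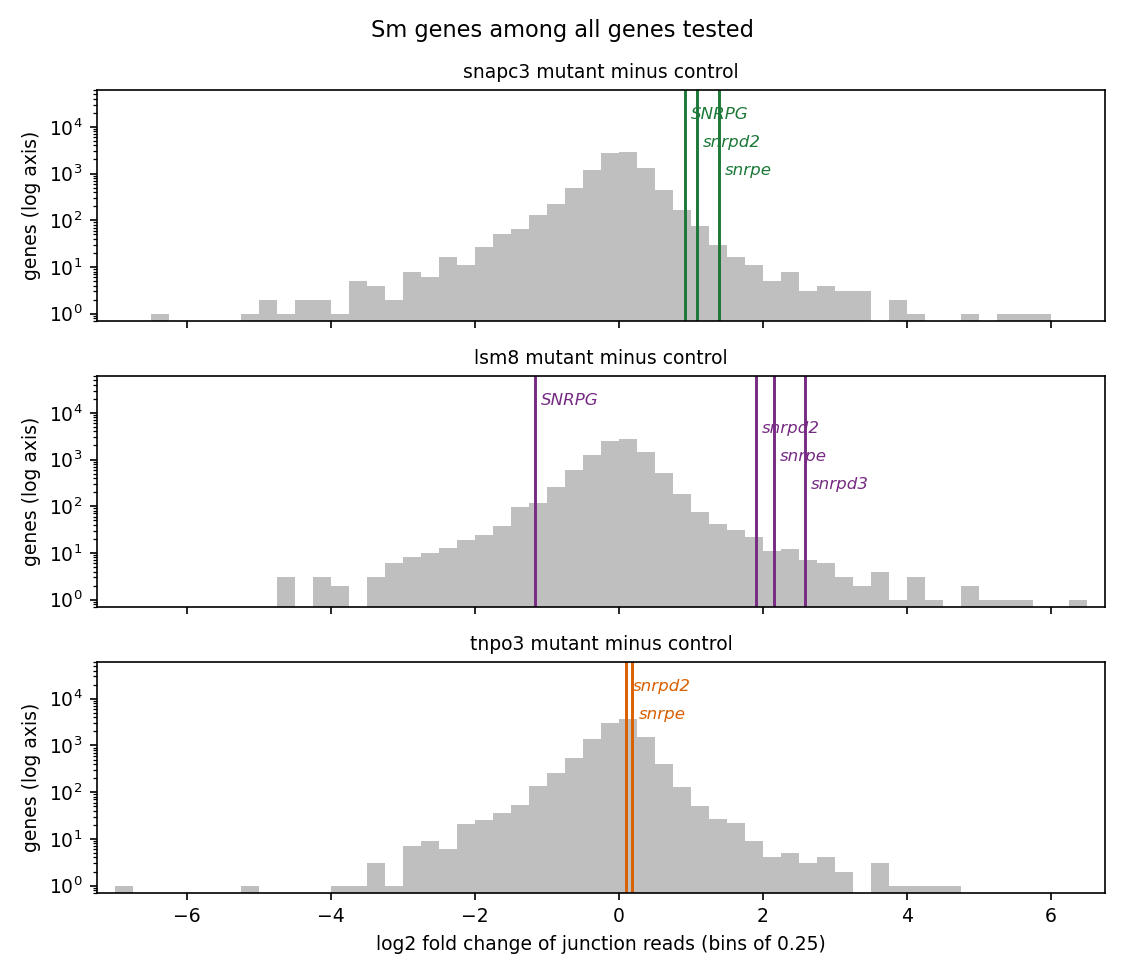
Number of genes (vertical axis, logarithmic) by log2 fold change of junction reads (horizontal axis, bins of 0.25) in each mutant, with vertical lines for the Sm genes. Except for SNRPG in the lsm8 mutants, the lines lie on the upper flank in the snapc3 and lsm8 panels, and in the tnpo3 panel they lie near the middle, at 0.10 and 0.19.

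The mutants were also set against each other, over the 13347 exon events present in all 3 tables, where snrpd2 was the only Sm gene. Its levels over these events were 165 ± 14.6 CPM in controls, 349 ± 14.9 in snapc3 mutants, 624 ± 34.7 in lsm8 mutants and 180 ± 15.7 in tnpo3 mutants (SD, n = 3). The order ran from lsm8 to snapc3 mutants and then to tnpo3 mutants and controls, and the last 2 groups did not differ beyond their spread. The level in lsm8 mutants exceeded that in snapc3 mutants by 0.84 on the log2 scale (SE 0.10, limma adjusted p 0.000100), in a contrast where 18.9% of 7440 genes differed. The tnpo3 mutants differed from the snapc3 mutants by -0.96 (SE 0.10, limma adjusted p 2.72e-05), with 13.3% of genes called. They differed from the lsm8 mutants by -1.80 (SE 0.10, limma adjusted p 8.13e-09), with 17.1% of genes called. For snrpe, over the events shared by the snapc3 and tnpo3 tables, the tnpo3 mutants stood at 83.04 ± 14.1 and the snapc3 mutants at 187 ± 3.34 CPM (SD, n = 3), a log2 difference of -1.19 (SE 0.12, limma adjusted p 0.000205, 12.2% of genes called). The snrpe exon entered both tables through skipping reads of mutants alone, 2 in snapc3 and 3 in tnpo3 mutants. This snrpe contrast may thus be partly set by the listing rule. SNRPG, over the events shared by the snapc3 and lsm8 tables, had means of 52.8 CPM in lsm8 and 48.1 CPM in snapc3 mutants. Its fitted log2 difference was -2.08 with an SE of 2.27 (limma adjusted p 0.576, 18.6% of genes called), and this contrast includes the library without reads.

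The genes whose levels followed snrpd2 most closely were found by the root-mean-square difference of log2 level over the 12 libraries, each gene centred on its control mean. The nearest of 7440 genes were sart1 at 0.10, TAF1C at 0.14, sap30bp at 0.14, snrnp27 at 0.14 and ccnl1b at 0.24. Of these, sart1 and snrnp27 encode proteins of the tri-snRNP, the particle of U4, U5 and U6 that joins the spliceosome. Mean levels of sart1 were 77.2 CPM in controls, 159 in snapc3 mutants, 278 in lsm8 mutants and 87.9 in tnpo3 mutants. The libraries share their depth and scaling across genes, so this likeness is a description.

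Exon use of the Sm genes differed by less than 5 percentage points in every comparison. The rule for a changed exon, an adjusted p below 0.05 and a difference of at least 10 percentage points in length-corrected inclusion, called none of the 3 member exons in the snapc3 table, none of the 4 in the lsm8 table and none of the 2 in the tnpo3 table. Over all exons tested it called 0.686%, 1.23% and 2.29%. Without the minimum difference, limma called SNRPG in the snapc3 mutants and snrpd2 in the tnpo3 mutants, and both moved toward skipping. For SNRPG that direction was fixed in advance, since its exon was listed through skipping reads of mutants alone and its inclusion could only fall. Skipping then rose for 2.55% of all exons tested in the snapc3 mutants, 4.29% in the lsm8 mutants and 6.23% in the tnpo3 mutants. None could be tested in the retained-intron tables, which list no member.

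The snrpd2 exon lies on chromosome 18 at 39176679 to 39176858 of genome build Zv9, on the minus strand. It is 180 bp long, a multiple of 3, and is flanked by introns of 4224 and 3246 bp. In controls 0, 2 and 1 reads skipped it, of 1421, 1461 and 1360. In the tnpo3 mutants 36, 31 and 45 reads skipped it, of 1460, 1660 and 1374. Every tnpo3 mutant library thus had more skipping reads than any other library of the study. How many of all exons separate in this way was not counted. The skipping share was 2.47%, 1.87% and 3.28% in the 3 tnpo3 mutant libraries, with exact 95% intervals from 1.27% at the lowest to 4.36% at the highest. Length-corrected inclusion fell from 99.9% ± 0.137 to 95.1% ± 1.34 (SD, n = 3), by 4.80 percentage points, with a limma adjusted p of 0.000617. The authors' deposited table gave an FDR of 0 for this event.

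The same exon was skipped by 8, 0 and 15 reads in the snapc3 mutants, and inclusion was 99.5% ± 0.565 (SD, n = 3, limma adjusted p 0.774). Of the 12841 reads in lsm8 mutants, 0, 0 and 6 per library skipped it, and the limma adjusted p was 0.359. The snapc3 and lsm8 mutants, where snrpd2 reads rose, thus held few skipping reads. Inclusion in the tnpo3 mutants was lower than in the lsm8 mutants by 4.86 percentage points (limma adjusted p 0.0105, 5.38% of exons called in this contrast). Against the snapc3 mutants the difference was -4.40 points and missed the threshold (limma adjusted p 0.0680, 5.52% of exons called). The lsm8 and snapc3 mutants differed by 0.464 points (limma adjusted p 0.406, 2.26% of exons called). These tests used the log2 ratio of inclusion to skipping with 0.5 added to each count. Where no read skips the exon, that ratio rises with the number of reads, so these p-values may partly reflect gene level.

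The SNRPG exon lies on chromosome 23 at 34269267 to 34269289 of Zv9, on the plus strand. It is 23 bp long, which is not a multiple of 3, and the introns around it measure 240 and 1895 bp. None of the 733 control reads skipped it, which allows a share of up to 0.409%, counting error only. In the snapc3 mutants 7, 7 and 4 reads skipped it, of 494, 337 and 474. All 3 libraries thus held a few skipping reads where the controls held none. The exon was listed in this table through these reads alone, so the direction of the difference was fixed in advance. Inclusion was 100% in controls and 99.2% ± 0.334 in mutants (SD, n = 3), with a limma adjusted p of 0.0400, and the authors' deposited table gave an FDR of 1. The adjusted p ranged from 0.0356 to 0.176 over the alternatives and was above 0.05 whenever a library was left out. Among lsm8 mutant reads 2 of 1278 skipped this exon, in the 2 libraries that had reads of it (limma adjusted p 0.911). The difference of 0.692 points between lsm8 and snapc3 mutants, over the events of both tables, missed the threshold (limma adjusted p 0.0808, 2.14% of exons called).

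The remaining exons were included in nearly every read. For snrpe, the 63 bp exon on chromosome 11 at 38888204 to 38888266 of Zv9, plus strand, was skipped by 2 of 5382 reads in snapc3 mutants, by 3 of 2456 in tnpo3 mutants and by none of 2170 in controls. The 27 bp exon of snrpe at 38886816 to 38886842, which lies upstream of it, was skipped by 2 of 3332 reads in lsm8 mutants and none of 931 in controls. For snrpd3, the 193 bp exon on chromosome 8 at 31592394 to 31592586, plus strand, was skipped by 2 of 8183 reads in lsm8 mutants and none of 1708 in controls. Inclusion of these exons differed from controls by less than 0.5 percentage points in each comparison. In the lsm8 mutants the limma adjusted p was 0.333 for snrpd3 and 0.495 for snrpe with 0.5 added to each count. With 2 added it was 0.0117 and 0.0215, toward inclusion, although inclusion itself was slightly lower than in controls. These p-values thus depend on the count added. For snrpe in the snapc3 and tnpo3 mutants the adjusted p stayed above 0.05 with either. Every event in the skipped-exon tables has at least 1 skipping and 1 including read over its 6 libraries, so a member exon with no skipping read at all would not be listed.

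**Figure D4:**
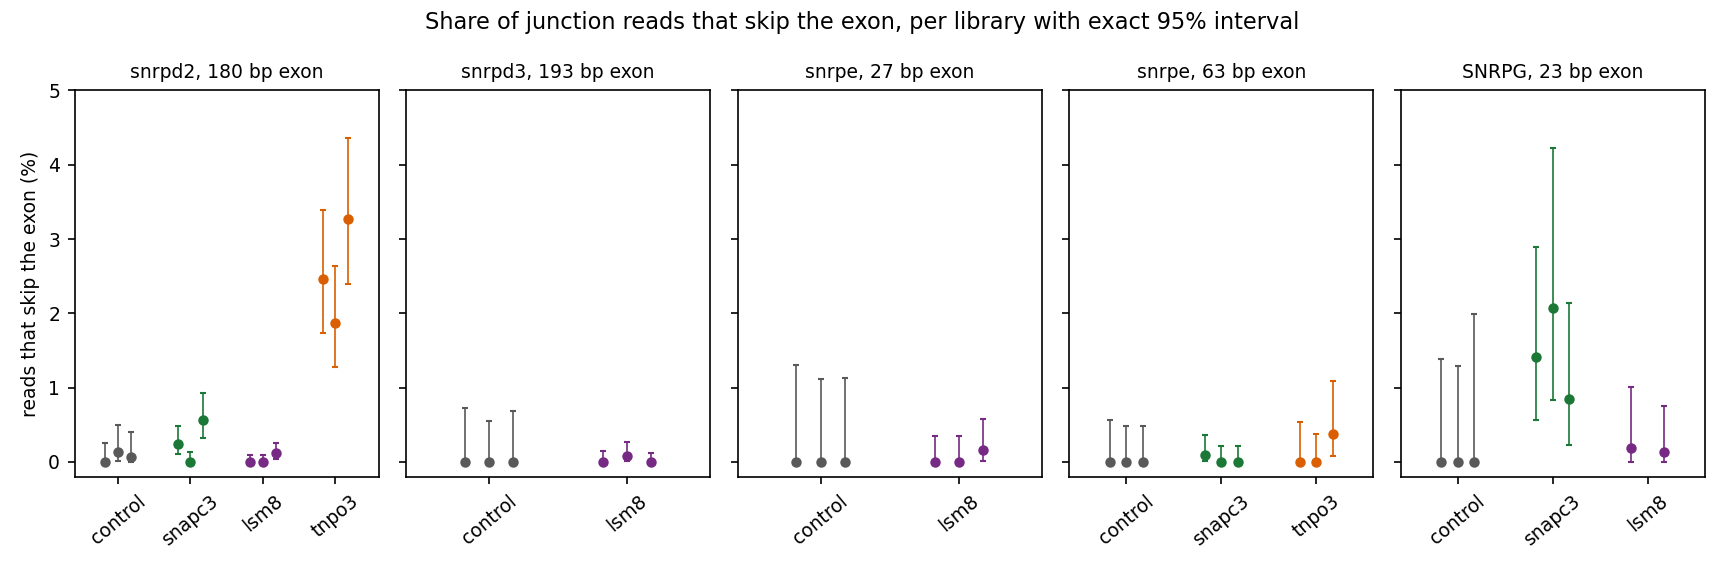
Percentage of junction reads that skip each Sm gene exon (vertical axis, not corrected for length) in each library, with exact 95% binomial intervals for counting error, by group. For the snrpd2 exon the tnpo3 mutants lie between 1.87% and 3.28%, and for the SNRPG exon the snapc3 mutants lie between 0.844% and 2.08%, with all control points at or near 0.

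The proteins of U5 and the tri-snRNP join the spliceosome together with particles that carry the Sm ring. In the snapc3 mutants, where 2.44% of all genes rose, 7 of 11 tested genes of this list rose and none fell. The list median was 0.80 on the log2 scale in junction reads. The smallest adjusted p-values belonged to log2 changes of 1.36 for eftud2, the GTPase of U5 (limma adjusted p 0.000364), 1.03 for sart1 (limma adjusted p 0.000896) and 1.14 for snrnp27 (limma adjusted p 0.000980). Of the same list 8 of 13 rose in the lsm8 mutants and none fell, with a median of 1.49. Of all genes, 4.54% rose in the lsm8 mutants. There the helicase gene snrnp200 stood at 2.38 and eftud2 at 2.53 (both limma adjusted p 1.24e-07), values close to the 2.58 of snrpd3. In the tnpo3 mutants none of 8 passed the test and the median was -0.13. Exons of these genes, and of the lists below, are likewise listed only with a skipping read. Which group held those reads was not tested, so these counts may be partly set by that rule.

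Other proteins bind the U1 or U2 particle beside the ring. In the snapc3 mutants 2 of 9 rose, sf3a2 by 1.21 (limma adjusted p 0.000229) and sf3a3 by 0.59 (limma adjusted p 0.0406), with a list median of 0.42. Here 5 of 10 rose in the lsm8 mutants, led by sf3a2 at 2.00 (limma adjusted p 9.01e-07) and sf3a3 at 1.58 (limma adjusted p 2.70e-05), with a median of 0.98. None of 5 passed in the tnpo3 mutants, where the median was 0.13. The shares of all genes that rose, 2.44% in the snapc3 and 4.54% in the lsm8 mutants, are the background here too. Both sf3a2 and sf3a3 encode subunits of a U2 complex that contacts the branch site region.

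Genes of snRNP assembly include the SMN complex, the methyltransferase that modifies Sm protein tails and the import adaptor of snRNPs. None of those tested passed in junction reads. This held for 10 genes in the snapc3 mutants, 11 in the lsm8 mutants and 11 in the tnpo3 mutants, with medians of -0.10, 0.19 and 0.03. The adaptor gene snupn was tested in the tnpo3 mutants alone, where it stood at 0.33 (limma adjusted p 0.241). The methyltransferase gene prmt5 stood at -0.29 (limma adjusted p 0.141) in the snapc3 mutants and at 0.36 (limma adjusted p 0.190) in the lsm8 mutants. The authors' deposited table for the lsm8 mutants listed coil at 1.36 and the import adaptor gene snupn at 1.09 as higher. Of the LSm genes, lsm7 rose in the snapc3 mutants by 1.74 (limma adjusted p 5.38e-05), the only call among 5. For lsm4 the rise in the lsm8 mutants was 0.71 (limma adjusted p 0.00139), the only call among 4, and none of 6 passed in the tnpo3 mutants. The medians of the LSm list were -0.03, 0.14 and -0.01 in the snapc3, lsm8 and tnpo3 mutants. The genes tested in each mutant included lsm1, lsm14aa and lsm14ab, whose products are not in the U6 ring, so these medians do not describe that ring. The ring gene lsm4 stood at 0.37 in the snapc3 mutants (limma adjusted p 0.0833) and at -0.17 in the tnpo3 mutants (limma adjusted p 0.460). Among LSm genes the authors' deposited table for the snapc3 mutants listed lsm8 at 2.19 and lsm7 at 1.54. For the lsm8 mutants the authors' deposited table listed lsm7 at 2.85 and lsm6 at 1.45, beside lsm8 itself at 2.87.

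Markers of dividing cells and of tissues moved in some of the same libraries, and in RNA of whole embryos fewer cells of a type and less RNA per cell cannot be told apart. In the snapc3 mutants 2 of 7 proliferation genes fell and none rose, mki67 by 0.99 (limma adjusted p 0.0125) and kif11 by 0.76 (limma adjusted p 0.0125). The summed level of that list was 196 to 222 CPM in controls and 131 to 147 in snapc3 mutants. None of 7 was called in the lsm8 mutants, with sums of 263 to 372 in controls and 233 to 301 in mutants. In the tnpo3 mutants kif11 rose by 1.25 (limma adjusted p 0.00360), 1 call of 11. Among all genes, 332 of 10135 were called lower in the snapc3 mutants and 717 of 9957 in the lsm8 mutants. In the tnpo3 mutants 255 of 11333 were called lower. Of the tissue markers, 3 rose and 1 fell of 14 tested in the snapc3 mutants, 1 rose and 3 fell of 15 in the lsm8 mutants, and 1 fell of 14 in the tnpo3 mutants. The muscle genes tpma, at 0.90, and ckma, at 0.70, were among those that rose in the snapc3 mutants. No tested marker of either list was at 0 in any library. The part of cell makeup in the levels of the Sm genes was not tested.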

How the data were processed

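Per the labels' protocols, RNA of whole embryos was purified by TRI Reagent before and after a DNase step, and 12 stranded libraries were prepared from it with ribosomal RNA removed. The submitters' processing notes name build Zv9, Bowtie2 2.2.3, TopHat2 2.0.13, limma 3.26.3 and featureCounts 1.4.5-p1. For each mutant the authors deposited log2 fold changes, average log2 expression, a moderated t statistic (a score), log-odds scores, p-values and adjusted p-values, for listed genes only. Dividing a deposited log2 fold change by its moderated statistic gave the SE. The deposited p-values imply 33737 genes tested. The authors also deposited raw junction read counts of skipped exons and retained introns, with 3 libraries per cell, form lengths, inclusion fractions, p-values and FDR. The sources used here do not give the splicing tool. Libraries are named by their position in a cell, since positions could not be matched to replicate numbers.

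Junction reads were summed per gene symbol and scaled by trimmed means of log ratios (30% of ratios and 5% of levels trimmed). Genes needed a total of 15 reads, and in at least 3 libraries the level that 10 reads have at median depth. limma 3.58.1 in R 4.3.3 (trend, robust) tested log2 CPM with a prior count of 2 against controls, or between mutants with all 4 groups in the fit. The design named edgeR for this test, but edgeR was not run and limma took its place. The counts, once split per library, are whole numbers, so their form did not prevent it. Exons were tested by limma on the log2 ratio of length-corrected inclusion to skipping with a pseudocount of 0.5, for a mean of at least 10 reads. A library without reads of an event was left out of that event's inclusion test. Adjusted p-values are Benjamini-Hochberg values over all features. The code was tested on simulated data. Shares have exact (Clopper-Pearson) 95% intervals, and the limit for a count of 0 is 3 counts. Intervals and limits cover counting error only.

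Gene symbols are those of the tables. The gene name reference matched 3 of the 5 identifiers. Members, lists and tests were chosen with earlier results of these data known. Genes named are the 5 members, the mutated genes, up to 3 genes of each list with the smallest adjusted p or called against the members' direction, and the 5 genes nearest to the members' profile. The deposited values of snrpb, snrpd1, coil, snupn and lsm6 were added after they were seen. Promoter and protein sequences were not used here. Alternatives were another scaling, no filter, the largest event per gene, events of all tables, other thresholds and pseudocounts, the deposited FDR, and each library left out.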

Additional observations from a re-analysis of the deposited data

Results flagged for a closer look

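Between mutants, each compared with the same controls, the change of snrpd2 junction reads differed in all 3 contrasts over the events of all tables. The lsm8 mutants exceeded the snapc3 mutants by 0.84 on the log2 scale, with 3 of 3 libraries above all snapc3 mutant libraries. How many of all genes separate in this way was not counted, and 18.9% of 7440 genes were called in this contrast. The tnpo3 mutants stood at -0.96 against the snapc3 mutants and at -1.80 against the lsm8 mutants. The change of snrpe junction reads differed by -1.19 on the log2 scale between tnpo3 and snapc3 mutants, over the events of both tables. Both tables list that snrpe exon through skipping reads of mutants alone. Inclusion of the 180 bp exon of snrpd2 differed by -4.86 percentage points between tnpo3 and lsm8 mutants. Groups of 3 libraries are too small for a test of single outlying libraries.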

How the results depend on the processing

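No paired analysis was possible, since each mutant group is on 1 background and the controls hold 1 library of each background. The libraries within a cell also carry no replicate numbers, so the control of the same background could not be picked out. The planned edgeR and DESeq2 tests were not run, and the limma fit of the alternatives became the test used. Restricting the junction reads to events of all 3 tables left snrpd2 alone, which gave 1 Sm gene called in the snapc3 mutants and 1 in the lsm8 mutants, against 3 in each. The events of the pair's own tables gave 2 called Sm genes for tnpo3 against snapc3 mutants, against 1. Without a minimum difference 1 Sm gene exon was called in the snapc3 mutants (SNRPG) and 1 in the tnpo3 mutants (snrpd2), against 0. The SNRPG exon was listed through skipping reads of mutants alone. With a minimum absolute log2 fold change of 1, the genes called over the whole table fell from 579 to 232 (snapc3), from 1169 to 347 (lsm8) and from 378 to 147 (tnpo3), and SNRPG at 0.91 dropped out in the snapc3 mutants.

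Leaving out each library in turn gave 282 to 661 genes in the snapc3 mutants, 726 to 1314 in the lsm8 mutants and 115 to 321 in the tnpo3 mutants. The Sm genes called were then 2 to 3 in the snapc3 mutants and 3 to 4 in the lsm8 mutants. Without the lsm8 mutant library in position 2, SNRPG turned from -1.17 to 1.64, since that library has no read of the event, and its values ranged from -2.58 to 1.64 over the libraries left out. With scaling by table totals alone the median log2 fold change of all genes was -0.11 in the snapc3 and 0.11 in the lsm8 mutants, against 0.00 and 0.01. The junction-read calls of snrpd2, snrpd3 and snrpe in the snapc3 and lsm8 mutants held under each alternative that gave a value, with adjusted p of at most 0.00525. For snrpd3 and snrpe each of these alternatives used the same exon, listed through skipping reads of mutants alone. They therefore do not test the part of the listing rule in those calls. The snrpd2 exon in the tnpo3 mutants had adjusted p from 0.000170 to 0.0400. A deposited adjusted p below 0.01 left 4 Sm genes listed in the snapc3 and 4 in the lsm8 mutants.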
